A study of Mus musculus with 11 samples.

Results

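Polycomb repressive complex 1 (PRC1) is a chromatin complex built around the ubiquitin ligase RING1B, and its accessory subunits divide its assemblies into canonical and variant forms. The accessory subunit genes described here were 10 of the 23288 gene symbols in the deposited expression table, chosen by name and by no threshold on a measured value, although earlier results of these data were known when the list was drawn up. The 4 canonical genes were Phc1, Phc2, Phc3 and Scmh1, and the 6 variant genes were Kdm2b, Bcor, L3mbtl2, Mga, Max and E2f6. All 10 were found in the table, and all 10 passed the filter of a mean of at least 1 FPKM (fragments mapped to a transcript, scaled to its length and to the mapped fragments of the library) in either group, as did 11592 genes in all.

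The study used E14Tg2A cells, a mouse embryonic stem cell (ESC) line, grown without feeders in serum and leukemia inhibitory factor. RNA-seq was made from 2 libraries of ESCs infected with lentivirus carrying a control shRNA (shCtl) and 2 of ESCs infected with lentivirus carrying an shRNA against Cbx6 (shCbx6), so that every RNA library comes from infected and drug-selected cells. Which of the Cbx6 shRNAs was used is not given in the sources used here, and nothing states that the replicates were separate cultures, so p-values measure the spread between these libraries, which may be technical. ChIP-seq peak lists were available for 2 replicates of anti-HA ChIP of CBX6 carrying a triple HA tag on its endogenous gene, in a line grown from sorted single cells, and for 1 ChIP each of CBX7 and RING1B.

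In canonical PRC1, a CBX protein reads the histone mark laid down by PRC2, and the PHC proteins, which can polymerise through their SAM domains, help to compact chromatin. SCMH1, a relative of fly Sex comb on midleg, also carries a SAM domain. Variant complexes are described as lacking PHC proteins and as reaching chromatin through other subunits. KDM2B, a histone demethylase with a zinc finger for unmethylated CG dinucleotides, and BCOR, a corepressor, work with PCGF1. L3MBTL2, which carries MBT repeats, the MGA and MAX pair of E-box binding proteins, and the repressor E2F6 work with PCGF6 and silence germline genes in ESCs.

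The sequences below lie immediately upstream of annotated starts of 4 of the genes and are shown because the peak lists separate them. At Bcor, RING1B and CBX7 peaks overlapped these bases. At E2f6, RING1B, CBX7 and CBX6 replicate 1 peaks did, the CBX7 peak over only the part nearest the start. At Phc3 only a CBX6 replicate 1 peak did, and Scmh1 had no peak in any list. The sequences are RefSeq upstream sequences of build GRCm38.p6, each matched exactly and at 1 place in mm9, and capitals mark CG dinucleotides. The window of Scmh1 was shortened to end before the annotated transcript, and none of the 4 overlaps an annotated exon.
Bcor (mm9, chrX:11737482-11737731, minus strand): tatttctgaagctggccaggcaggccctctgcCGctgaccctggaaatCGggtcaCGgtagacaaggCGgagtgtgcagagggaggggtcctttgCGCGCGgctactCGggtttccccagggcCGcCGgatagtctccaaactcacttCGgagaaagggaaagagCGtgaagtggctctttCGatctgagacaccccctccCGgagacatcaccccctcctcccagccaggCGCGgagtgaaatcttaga
E2f6 (mm9, chr12:16817521-16817770, plus strand): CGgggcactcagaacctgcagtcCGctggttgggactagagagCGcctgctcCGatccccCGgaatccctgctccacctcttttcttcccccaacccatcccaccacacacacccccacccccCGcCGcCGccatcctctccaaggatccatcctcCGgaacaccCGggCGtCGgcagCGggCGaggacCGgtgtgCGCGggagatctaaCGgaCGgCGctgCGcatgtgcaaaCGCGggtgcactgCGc
Phc3 (mm9, chr3:30868338-30868587, minus strand): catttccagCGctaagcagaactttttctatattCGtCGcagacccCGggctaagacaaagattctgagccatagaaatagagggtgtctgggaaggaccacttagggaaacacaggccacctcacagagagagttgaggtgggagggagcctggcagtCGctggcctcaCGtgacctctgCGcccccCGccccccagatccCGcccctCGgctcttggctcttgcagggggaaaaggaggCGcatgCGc
Scmh1 (mm9, chr4:120077703-120077885, plus strand): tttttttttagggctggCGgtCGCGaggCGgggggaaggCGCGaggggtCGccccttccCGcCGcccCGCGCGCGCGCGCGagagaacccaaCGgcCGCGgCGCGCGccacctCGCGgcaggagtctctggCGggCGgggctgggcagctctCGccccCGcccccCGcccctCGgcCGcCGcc

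The Bcor stretch holds 16 CG dinucleotides in 250 bases, the E2f6 stretch 24 in 250 and the Phc3 stretch 12 in 250, whereas the Scmh1 stretch holds 32 in 183 bases. The median over 32851 RefSeq promoters was 6 in the 250 bases upstream, with quartiles of 2 and 16. The full upstream window of Scmh1 held 45 CG dinucleotides, more than 99.6% of promoters.

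Cbx6, the targeted gene, was at 17.4 and 14.9 FPKM in shCtl and at 9.53 and 5.40 FPKM in shCbx6. Both shCbx6 libraries were below both shCtl libraries, and the ratio of the means was 0.462. The log2 fold change of FPKM + 1, the scale of every fold change below unless a ratio of FPKM is named, was -1.06 ± 0.26 (SE, n = 2 per group), with an adjusted p of 0.247 by limma, a linear model fitted to all 11592 genes with Benjamini-Hochberg adjustment. The ESC markers Pou5f1 (1359 and 1452 FPKM in shCtl, 1120 and 1151 in shCbx6) and Nanog (321 and 359, then 204 and 192) were high in all 4 libraries. Of the 10 ESC markers on the list, 7, these included, were lower in both shCbx6 libraries than in both shCtl libraries (24.4% of all genes tested), 1 (Utf1) was higher in both (18.9%), and Sox2 and Fgf4 overlapped. The second shCbx6 library stood apart: the summed level of 8 trophectoderm markers was 13.5 and 18.0 FPKM in shCtl, 35.2 in shCbx6 replicate 1 and 263.4 in shCbx6 replicate 2. Most of the last sum was Krt8 (118.8 FPKM) and Krt18 (122.2 FPKM). Of the 6 tested trophectoderm markers, 5 were higher in both shCbx6 libraries (18.9% of all genes tested). Eomes overlapped between the groups at 1.42 to 2.12 FPKM. Of the 5, Hand1 and Krt7 passed the filter only through shCbx6. The summed level of 8 primitive endoderm markers was 12.13 and 11.25 FPKM in shCtl, then 4.74 and 4.77 FPKM. Of the 2 tested, 1 was higher in both shCbx6 libraries and 1 lower. Of 5 tested neuroectoderm markers, 2 were higher and 2 lower. Dab2 and Nes, both higher, passed the filter only through shCbx6. Of 6 mesoderm markers, 0 were tested. The summed level of 8 fibroblast markers was 57.9 and 47.6 FPKM in shCtl, then 44.8 and 92.9 FPKM. Of the 4 of these that were tested, 2, Acta2 and Tagln, were higher in both shCbx6 libraries (18.9% of all genes tested). Tagln, at 0.874 and 0.475 FPKM, then 5.12 and 37.0, passed the filter only through shCbx6. The most abundant, Vim, was the 1 lower in both (24.4%), at 53.3 and 43.9 FPKM, then 34.9 and 42.0. Thy1 overlapped. The part of these libraries' other markers in the values below was not tested, and in bulk RNA fewer cells of a type and less RNA per cell cannot be told apart.

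In control ESCs the accessory subunits spanned a wide range of RNA levels. FPKM are scaled to transcript length, so levels of different genes were set side by side. How transcripts were combined is not stated, and values of paralogs such as the Phc genes are uncertain. Phc1 was the highest at 113.9 ± 8.7 FPKM (mean ± SD, n = 2), higher than 93.3% of the genes tested. L3mbtl2 (49.75 FPKM), Max (47.5), Kdm2b (45.4) and Mga (30.3) followed, and then E2f6 (9.72), Phc2 (8.29), Bcor (6.68), Scmh1 (2.66) and Phc3 (2.00). Of the neighbours in this order, Max and Kdm2b, E2f6 and Phc2, and Phc2 and Bcor overlapped between the shCtl libraries. The canonical genes held both the highest and the lowest of these levels, and Phc1 alone made up 92.6% and 90.7% of the summed Phc FPKM in shCtl and 93.6% and 92.5% in shCbx6.

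**Figure D1:**
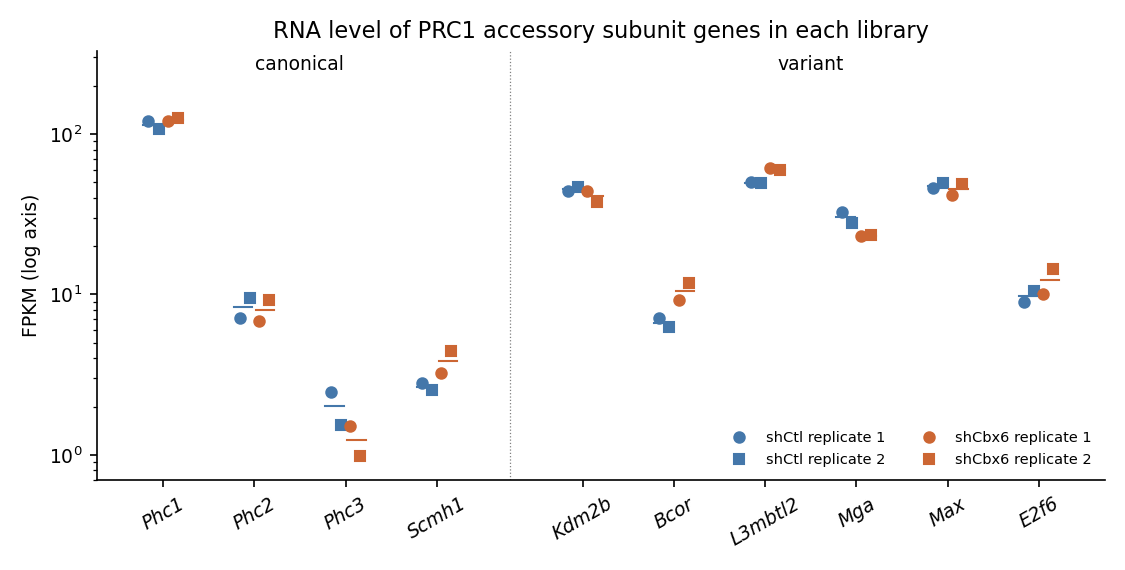
RNA level (FPKM, log axis) of the 4 canonical and 6 variant accessory subunit genes in the 2 shCtl (blue) and 2 shCbx6 (orange) libraries, with a short line at each group mean. Phc1, Scmh1, Bcor and L3mbtl2 show both orange points above both blue ones (18.9% of all genes tested), and Phc3 and Mga show both below (24.4%).

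The RNA-seq asks which genes differ when Cbx6 is depleted, and it was read here for the accessory subunits. No accessory subunit gene passed an adjusted p of 0.05 by limma between shCbx6 and shCtl (0 of 10, against 0.0949% of all genes tested), and 1 of 10, Bcor, had an unadjusted p under 0.05 (11.7% of all genes tested). The groups did not overlap for 4 genes that were higher in both shCbx6 libraries (Phc1, Scmh1, Bcor and L3mbtl2; 18.9% of all genes tested) and for 2 that were lower in both (Phc3 and Mga; 24.4%). With groups of 2, the smallest p of an exact permutation test is 0.333. The ratio of mean FPKM reached 1.5-fold upward for 1 gene, Bcor (7.63% of all genes tested), and downward for 1 gene, Phc3 (6.56%). Without shCbx6 replicate 2 this count was 0 of 10, and without shCtl replicate 2 it was 1 of 10. It was 2 of 10 without shCtl replicate 1 and 3 of 10 without shCbx6 replicate 1. The share of all genes tested was not computed with a library left out.

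Among the canonical genes, Phc1, the abundant polyhomeotic paralog of ESCs, was at 120.1 and 107.8 FPKM in shCtl and at 120.9 and 125.2 FPKM in shCbx6. Both shCbx6 libraries were above both shCtl libraries, and the ratio within same-numbered libraries was 1.01 and 1.16. The log2 fold change was 0.11 ± 0.15 (SE; limma adjusted p = 0.830). Phc2 was at 7.10 and 9.49 FPKM in shCtl and at 6.80 and 9.21 FPKM in shCbx6. Its groups overlapped, with each replicate number closer to its counterpart than to the other library of its group, and the log2 fold change was -0.05 ± 0.21 (limma adjusted p = 0.964).

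Phc3, the polyhomeotic gene with the lowest level, was at 2.47 and 1.54 FPKM in shCtl and at 1.51 and 0.981 FPKM in shCbx6. The groups did not overlap, but the lower shCtl library and the higher shCbx6 library nearly met. The ratio of the means was 0.621, and the ratio within same-numbered libraries was 0.612 and 0.636. The log2 fold change of -0.41 ± 0.24 had a 95% interval from -1.02 to 0.19 (limma adjusted p = 0.587). Scmh1 was at 2.79 and 2.53 FPKM in shCtl and at 3.22 and 4.44 FPKM in shCbx6. Both shCbx6 libraries were higher, more so replicate 2, and the log2 fold change was 0.39 ± 0.19 (95% interval -0.08 to 0.86, limma adjusted p = 0.502).

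Of the PCGF1-associated variant genes, Bcor had the largest log2 fold change of FPKM + 1 among the 10, an order that turned without shCtl replicate 2 (0.50 for Bcor, -0.64 for Phc3) and that the ratio of means does not share (1.57 for Bcor, 0.621 for Phc3). It was at 7.11 and 6.25 FPKM in shCtl and at 9.27 and 11.8 FPKM in shCbx6. Both shCbx6 libraries were higher than both shCtl libraries, and the ratio within same-numbered libraries was 1.30 and 1.88. The log2 fold change of 0.58 ± 0.17 (SE, n = 2 per group) had a 95% interval from 0.15 to 1.00 before adjustment and an adjusted p of 0.301 by limma. A noncoding transcript on the same strand, 2900008C10Rik, shares 58 exonic bases with Bcor, and it was listed at 0.0261 and 0.0516 FPKM in shCtl, then at 0.164 and 0.163 FPKM in shCbx6. Kdm2b, the partner of BCOR in this complex, was at 44.1 and 46.7 FPKM in shCtl and at 44.1 and 37.8 FPKM in shCbx6. Its groups overlapped, with a log2 fold change of -0.15 ± 0.15 (limma adjusted p = 0.767). The ratio of Bcor to Kdm2b FPKM, looked at after the levels were seen, was 0.161 and 0.134 in shCtl and 0.210 and 0.311 in shCbx6.

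Among the PCGF6-associated genes, L3mbtl2 was at 50.2 and 49.3 FPKM in shCtl and at 61.0 and 59.7 FPKM in shCbx6. The replicates of each group lay close together, and the ratio within same-numbered libraries was 1.22 and 1.21. The log2 fold change was 0.27 ± 0.13 (95% interval -0.06 to 0.61, limma adjusted p = 0.508). L3mbtl2 shares 1023 exonic bases with Chadl on the opposite strand, and Chadl was at 1.08 to 1.41 FPKM over the 4 libraries, with overlapping groups. Mga moved the other way, at 32.8 and 27.7 FPKM in shCtl and at 23.0 and 23.4 FPKM in shCbx6. Both shCbx6 libraries were lower, with a log2 fold change of -0.36 ± 0.15 (95% interval -0.73 to 0.01, limma adjusted p = 0.430). The ratio of L3mbtl2 to Mga FPKM, looked at after the levels were seen, was 1.53 and 1.78 in shCtl and 2.65 and 2.55 in shCbx6.

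Max, the dimerisation partner of MGA and also of MYC, was at 45.7 and 49.2 FPKM in shCtl and at 41.9 and 48.7 FPKM in shCbx6. Its groups overlapped (log2 fold change -0.07 ± 0.15, limma adjusted p = 0.907). E2f6 was at 8.96 and 10.5 FPKM in shCtl and at 10.1 and 14.3 FPKM in shCbx6. The lower shCbx6 library lay within the shCtl range, and the log2 fold change was 0.29 ± 0.20 (limma adjusted p = 0.657).

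**Figure D2:**
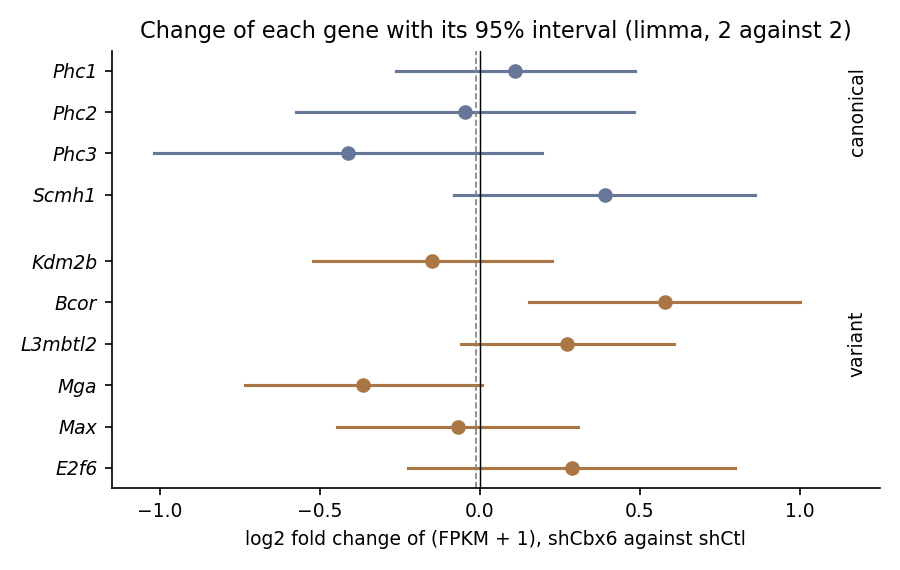
Log2 fold change of FPKM + 1, shCbx6 against shCtl, for each accessory subunit gene (points) with its 95% limma interval before adjustment (lines); the dashed line is the median of all genes tested, -0.01. The interval of Bcor, 0.15 to 1.00, is the one that does not include 0.

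Compared as classes, the canonical genes had a median log2 fold change of 0.03 (range -0.41 to 0.39, 4 genes) and the variant genes one of 0.10 (range -0.36 to 0.58, 6 genes), beside -0.01 over all genes tested. Each class held genes on either side of 0, 2 and 2 in the canonical class and 3 and 3 in the variant class. The difference of the medians, canonical minus variant, was -0.07, and it was -0.10 and -0.04 within same-numbered libraries (SD 0.042, 2 pairs). The labels do not establish these pairs, so the SD is a description only. The difference was -0.01 without shCbx6 replicate 1. The summed level of the canonical genes was 132.4 and 121.4 FPKM in shCtl, against 132.4 and 139.8 FPKM in shCbx6, and that of the variant genes was 188.9 and 189.7, then 189.3 and 195.8 FPKM. The spread between genes of a class exceeded the difference between the classes, and since genes are not replicates of a condition the classes were described without a test.

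A wider list of 32 other PRC1 subunits had 28 tested genes, of which 0 passed the adjusted threshold by limma and 4 had an unadjusted p under 0.05 (11.7% of all genes tested). Their median log2 fold change was -0.02 beside -0.01 over all genes tested. In 4 of the 28 both shCbx6 libraries were higher than both shCtl libraries (18.9% of all genes tested) and in 8 both were lower (24.4%), which is close to those shares. Beside Cbx6, the largest non-overlapping differences downward were in Wdr5, a WD40 scaffold protein (log2 fold change -0.50 ± 0.15), and Hdac2, a histone deacetylase (-0.37 ± 0.14). Upward they were in Skp1a, an F-box adaptor (0.39 ± 0.19), Yaf2, a RYBP relative (0.37 ± 0.17), and Pcgf6 itself, which was at 31.8 and 35.3 FPKM in shCtl and at 38.5 and 40.5 FPKM in shCbx6 (0.23 ± 0.14). Of the 7 tested canonical partners, 0 were higher in both shCbx6 libraries and 4 were lower in both, 3 of 6 without the targeted gene Cbx6, and of the 21 tested variant partners 4 were higher and 4 lower, with the same shares over all genes to be set beside them.

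Germline genes known as targets of the complex of MGA, E2F6 and L3MBTL2 were read as a further list of 16, of which 13 were tested. Of these, 3 passed the filter on low values only through shCbx6, so the counts that follow are over the 10 whose shCtl mean reached 1 FPKM, a choice made after the values were seen. By limma 0 of the 10 passed the adjusted threshold and 3 had an unadjusted p under 0.05 (11.7% of all genes tested). The groups did not overlap for 3 higher genes (18.9%) and 1 lower gene (24.4%). The ratio reached 1.5-fold upward for 2 genes, Mael and Zcwpw1 (7.63%), and downward for 1 gene, Stag3 (6.56%). The median log2 fold change was 0.29, but it was 0.08 without shCbx6 replicate 2 and 0.08 without shCtl replicate 2, and the genes past 1.5-fold changed with the library left out: from 2 to 4 upward and from 1 to 2 downward. Without shCbx6 replicate 2 they were Sycp1 and Sycp3 upward, and neither Mael nor Zcwpw1. Without shCtl replicate 1, and likewise without shCbx6 replicate 1, 4 were upward. Mael, a piRNA pathway gene, was at 5.81 and 7.25 FPKM in shCtl and at 8.36 and 15.4 FPKM in shCbx6 (log2 fold change 0.73 ± 0.29). Zcwpw1, a histone reader of meiotic recombination, was at 9.97 and 7.86 FPKM in shCtl and at 11.2 and 16.5 FPKM in shCbx6 (0.57 ± 0.22). Both were higher in both shCbx6 libraries and highest in shCbx6 replicate 2, the library with the highest Krt8 and Krt18 levels. Whether these go together was not tested. Stag3, a meiotic cohesin subunit, lay the other way, at 24.7 and 21.8 FPKM in shCtl and at 13.3 and 13.6 FPKM in shCbx6 (-0.75 ± 0.14).

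The peak lists were then read at each gene from 2.5 kb upstream of its start to the end of its transcripts, in mm9 coordinates. The CBX6 replicate 1 list had a peak at 9 of the 10 genes (Scmh1 was the exception), where 78.9% of the tested genes with coordinates had one. The CBX6 replicate 2 list had peaks at 1 gene, Bcor (13.0% of tested genes). The CBX7 list had peaks at 5 genes, Phc1, Phc2, Kdm2b, Bcor and E2f6 (12.8%), and the RING1B list at 2, Bcor and E2f6 (10.8%). By class, CBX7 peaks were at 2 of 4 canonical and 3 of 6 variant genes, and RING1B peaks were at 0 of 4 canonical and 2 of 6 variant genes. Within 2.5 kb of an annotated coding start, the counts were 8 for CBX6 replicate 1 (76.0% of tested genes), 1 for CBX6 replicate 2 (11.9%), 5 for CBX7 (11.8%) and 2 for RING1B (10.1%).

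The CBX7 peaks outside Bcor were weak. With a score of at least 100, where the score is the deposited MACS score of -10 times the log10 of the p-value, Bcor was the only 1 of the 10 left in the CBX7 list, where 9.46% of tested genes kept a peak, while 8 were left in the CBX6 replicate 1 list (54.5%), 1 in the CBX6 replicate 2 list (6.77%) and 2 in the RING1B list (8.19%). The CBX7 peak in an intron of Phc1 had a score of 56.6, that at the most upstream start of Phc2 one of 89.6, that at an internal start of Kdm2b one of 66.9 and that at the start of E2f6 one of 79.9. When only CBX6 peaks found in both replicates were counted, Bcor was again the only gene left, 1 of 10 beside 11.2% of tested genes by replicate 1 peaks and 11.1% by replicate 2 peaks, which is near that background. Peaks were called in each ChIP on its own, the depth of the ChIP libraries is unknown, and the protocols differed (the labels give 1 kit for the HA and CBX7 ChIP DNA and another protocol for RING1B, and the study's methods name the kit for the tagged line), so scores are not on 1 scale between lists.

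**Figure D3:**
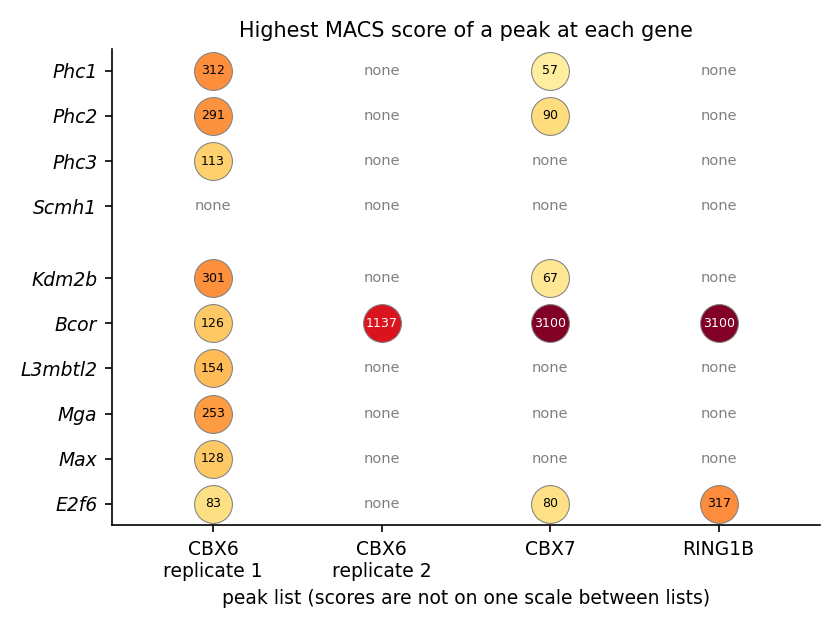
Highest MACS score (-10 times the log10 of the p-value) of a peak between 2.5 kb upstream and the transcript end of each accessory subunit gene, for the 4 peak lists, with darker circles for higher scores and "none" where no peak was listed. Bcor is the only gene with an entry in every list and Scmh1 the only one with none.

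Bcor (mm9, chrX:11613866-11737481, minus strand, 123.6 kb) carried broad domains in 3 of the 4 lists. The RING1B list held 7 peaks that covered 35.2 kb, or 27.9% of the gene window, and ranked 3 by covered length among 3522 genes with a RING1B peak. The CBX7 list held 12 peaks over 35.7 kb, rank 4 of 3921 genes, and the CBX6 replicate 2 list held 11 peaks over 24.3 kb, rank 7 of 3634. Long genes can hold more covered bases, so Bcor was also set among the 1809 genes at least as long. There it ranked 2 of 791 with a RING1B peak, 3 of 838 with a CBX7 peak and 3 of 806 with a CBX6 replicate 2 peak, where the medians were 2.61, 2.58 and 2.03 kb. In the CBX6 replicate 1 list, Bcor had 2 peaks, with scores of 93.5 and 126.4, over 2.43 kb, rank 4231 of 12474.

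When peaks of any list with gaps of at most 5 kb were joined, the peaks at Bcor fell into 3 blocks. The first lay over the most upstream start and reached 9.57 kb into the gene, the next ran from 19.2 to 34.1 kb and the last from 67.3 to 83.9 kb, and the 39.7 kb from there to the end of the gene had no peak in any list, nor did the stretches between the blocks. All 11 CBX6 replicate 2 peaks overlapped a CBX7 peak and a RING1B peak, with 96.9% and 98.5% of their length shared, and 1 of the 11 overlapped a peak of CBX6 replicate 1. RING1B and CBX7 peaks lay over all 4 annotated coding starts of Bcor. The CBX6 replicate 2 peaks lay over none of the 4: the nearest peak edges were 92, 46, 96 and 1911 bp away. Most peak centres were in introns, as annotated in GENCODE M1. The highest CBX6 replicate 2 score, 1137, was at chrX:11665859-11670168, where RING1B (chrX:11662402-11670183) and CBX7 (chrX:11662979-11669577) both had a peak with a score of 3100, a value that several peaks of these lists share, so that their order among themselves is not known.

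**Figure D4:**
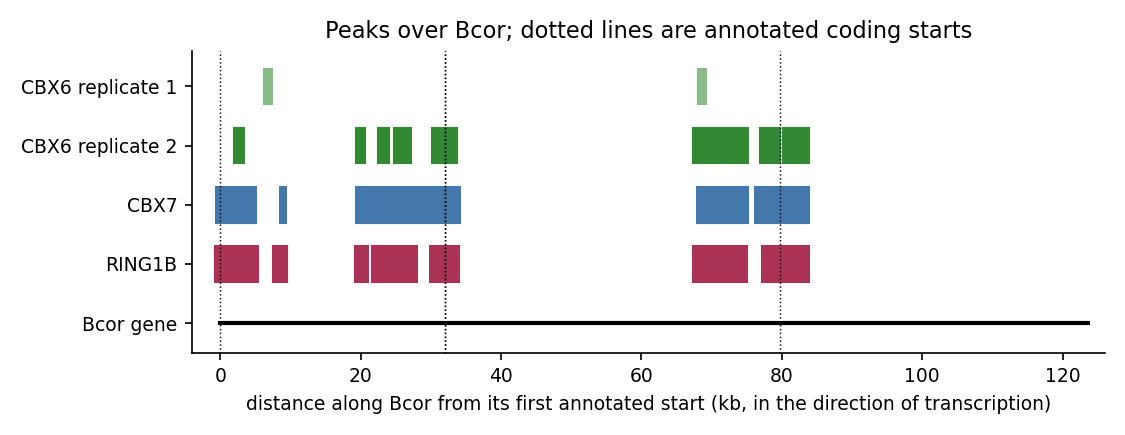
Peaks of the 4 lists along Bcor, in kb from its most upstream annotated start in the direction of transcription, with dotted lines at the annotated coding starts (4 in all, 2 of them too close to separate) and the gene drawn as a black line. CBX6 replicate 2, CBX7 and RING1B share 3 blocks, and CBX6 replicate 1 has 2 narrow peaks.

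Bcor and E2f6 were expressed above most genes with a RING1B peak. Genes with a RING1B peak had a median of 0.217 FPKM in shCtl, and 90.8% of them were below Bcor and 93.6% below E2f6. At E2f6 (mm9, chr12:16817771-16833549, plus strand), the RING1B peak (chr12:16816997-16818933, score 316.75) lay over both annotated coding starts, which the CBX7 peak and a CBX6 replicate 1 peak of score 82.6 also covered. About 10 kb upstream, outside the window of E2f6 and at Greb1, all 4 lists had a peak, with scores of 131.5 and 110.3 for CBX6, 322.4 for CBX7 and 249.8 for RING1B. Greb1 was at 0.22 to 0.38 FPKM over the 4 libraries and was not tested.

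Kdm2b (mm9, chr5:123320677-123465089, minus strand) had 7 CBX6 replicate 1 peaks over 14.5 kb, rank 69 of 12474 genes in that list, and no peak in the CBX6 replicate 2 list. At 144.4 kb it is the longest of the 10 genes. The peaks covered 9.90% of its window, and its rank was not set among genes of like length. Of its 9 annotated coding starts 2 lay under a CBX6 replicate 1 peak, and the start at 60.4 kb from the most upstream one also lay under the CBX7 peak. The highest of these peaks (chr5:123463342-123466297, score 301.1) also reached Orai1, a calcium channel gene on the opposite strand that was at 4.47 to 5.34 FPKM, and 2 others lay at the noncoding gene A930024E05Rik, at 2.12 to 4.27 FPKM. At L3mbtl2, Mga, Max and Phc3 the single peak of the window was a CBX6 replicate 1 peak over the start, with scores of 154.2, 253.0, 128.4 and 113.2. Past the end of L3mbtl2, at Chadl and outside the window, all 4 lists again had a peak, with scores of 376.7 and 63.6 for CBX6, 404.2 for CBX7 and 147.6 for RING1B. Phc1 and Phc2 had CBX6 replicate 1 peaks of up to 311.8 and 291.4, higher than 96.5% and 95.7% of that list's scores.

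The sequences shown above were read with these peaks. In the 17 RefSeq upstream windows of the 10 genes, the 2 windows of Bcor held 17 and 16 CG dinucleotides and that of E2f6 held 24, while windows without a RING1B peak held from 0, at a second start of Scmh1, to 45, at its main start. At Kdm2b, whose product binds unmethylated CG, the 4 windows held 12, 36, 27 and 38, and the 2 with the most, which overlap each other, lay under a CBX6 replicate 1 peak. The E-box CACGTG, searched on both strands, was in the window of Phc3, within the sequence printed above, and in 1 window of Phc2, where 6.02% of all promoters held it. The E2F-type motif TTCCCGC was in 1 window of Scmh1 (3.82% of promoters), and the T-box motif AGGTGTGA was in no window of the 10 genes (1.12% of promoters).

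**Figure D5:**
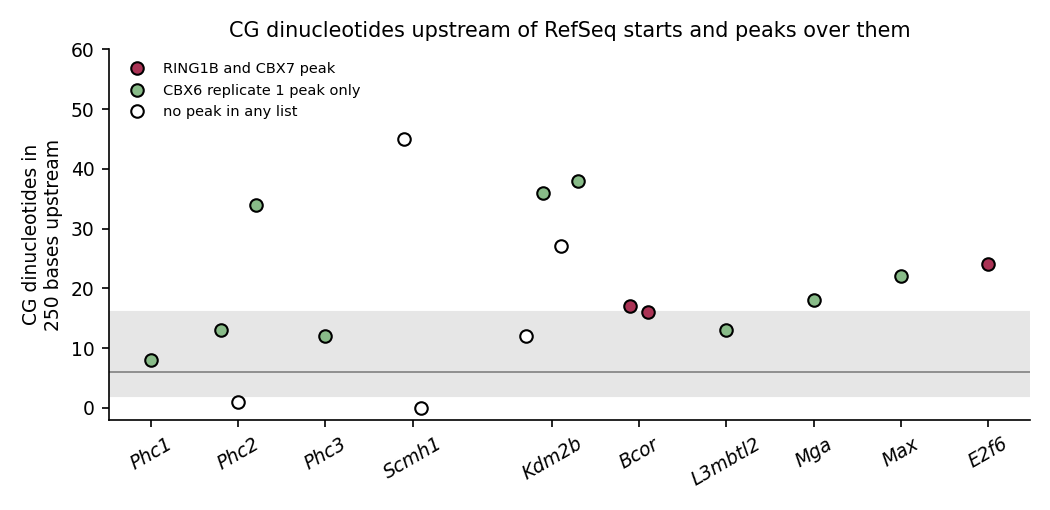
Number of CG dinucleotides in the 250 bases upstream of each RefSeq start of the accessory subunit genes, coloured by the peaks that overlap those bases, with the median (line, 6) and quartiles (band, 2 to 16) of 32851 promoters. The window with the most CG dinucleotides, 45 at Scmh1, has no peak, and those of Bcor and E2f6, with 16, 17 and 24, have RING1B and CBX7 peaks.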

How the data were processed

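RNA-seq was measured in 4 libraries and ChIP-seq in 7 samples of mouse ESCs, all mapped to groups from their labels. The RNA-seq reads, which were paired-end, had been placed on mm9 by the authors with TopHat (uniquely placed reads kept), and Cufflinks gave the FPKM of RefSeq transcripts. The deposited table has 23290 entries of FPKM with 23288 different symbols. Where a symbol was repeated, its entry of higher mean was kept, 23 symbols are dates and name no gene, and how transcripts were combined is not stated. Because multiply mapping reads were dropped and strand is not stated, values of paralogs and overlapping genes are uncertain, and FPKM cannot show a change in total RNA per cell. Totals of reads are not in the table. From the steps of low FPKM values, the depth of the libraries relative to shCtl replicate 1 was 1.01, 0.959 and 1.13. ChIP-seq reads had been placed on mm9 by the authors with Bowtie, without those of several placements, and each sample's peaks came from MACS. The score deposited with each peak was used only within a list. The parental anti-HA and IgG controls were not analysed here.

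From the FPKM, limma 3.58.1 (R 4.3.3; lmFit, eBayes with a trend) was run on log2(FPKM + 1) for the 11592 genes whose mean reached 1 FPKM in shCtl or shCbx6, without a replicate term, and p-values were adjusted over all of them by Benjamini-Hochberg. The ratio of mean FPKM was set against 1.5-fold. The script was tested on simulated data. Gene positions came from GENCODE M1 (NCBIM37, mm9), in which 21149 symbols were found directly and 772 through a synonym. A peak belonged to a gene where at least 1 bp lay between 2.5 kb upstream and the transcript end, and the background was the 11353 tested genes with coordinates. RefSeq promoter sequences (GRCm38.p6) were placed in mm9 by exact match of the upstream 250 bases.

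The accessory subunits, the other lists and the tests were chosen with earlier results of these data known. Named are all 10 accessory subunits, Cbx6, the ESC markers Pou5f1 and Nanog, genes that share a peak or exon with an accessory subunit, and from the partner and germline lists the 3 and 2 largest non-overlapping rises and falls. The other marker genes and the ratios of accessory subunits were named after their values were seen. The alternatives were leaving out each library, a pseudocount of 0.1, rescaling to a common median, quantile normalization, a replicate term, no filter, no trend, other fold and score thresholds and other peak windows.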

Additional observations from a re-analysis of the deposited data

How the results depend on the processing

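Each group had 2 libraries and the ChIP depth is unknown, so the width of the limma intervals limits which RNA differences could be detected, and no interval is given for peaks. The count of accessory subunits called by limma was 0 under every alternative run, the replicate block included, where Bcor had an adjusted p of 0.112. The labels share replicate numbers and name 1 file for each number, shCtl with shCbx6, but they give no shared culture, batch or day, and 2 pairs are too few to decide from the data; deviations of same-numbered libraries correlated at 0.266 over 11592 genes. The replicate block moved the calls over all genes from 11 to 388, and from 0 to 1 in the partner list (Cbx6) and from 0 to 1 in the germline list (Stag3), with no other call in these lists; the cause was not tested. Other alternatives also moved the count over all genes: 17 with a pseudocount of 0.1 and 26 with no filter, and from 19 to 398 when 1 library was left out, the most without shCbx6 replicate 1.

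Leaving out 1 library at a time, partner list calls ranged from 0 to 1 (Cbx6, without shCbx6 replicate 1), the canonical minus variant difference from -0.0828 to -0.00566, the genes past 1.5-fold from 0 (without shCbx6 replicate 2) to 3, the log2 fold change of Phc2 from -0.24 to 0.148 and that of Max from -0.176 to 0.0374, and both of these changed sign. The other 8 genes kept their direction over the 8 alternatives that were run for the log2 fold change of each gene. They ranged from 0.03 to 0.19 for Phc1, from -0.64 to -0.19 for Phc3, from 0.21 to 0.57 for Scmh1, from -0.26 to -0.04 for Kdm2b, from 0.42 to 0.73 for Bcor, from 0.26 to 0.30 for L3mbtl2, from -0.48 to -0.25 for Mga and from 0.05 to 0.52 for E2f6. Requiring 1.5-fold in both same-numbered pairs left 1 gene, Phc3, and a 2-fold threshold left 0. The share of all genes tested that passed was not computed for either of these thresholds. Nor was it computed for 1.5-fold with a library left out, so these counts cannot be set against a background. The CBX7 list had 1 accessory subunit at a score of at least 100 in place of 5 (9.46% of tested genes in place of 12.8%), and the CBX6 replicate 1 list 1 in place of 9 when peaks had to be in both CBX6 lists (11.2% in place of 78.9%). Both settings count fewer peaks. No scaling moved the median of all genes by over 0.1 on the log2 scale.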
